A study of Homo sapiens with 12 samples.

Results

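The interaction of TNFα with c-Jun siRNA was examined in BT549 cells, that is, how far the response of a gene to TNFα differed when c-Jun had been knocked down. It was formed from 12 of the 12 arrays of the study as the TNFα effect with c-Jun siRNA minus the TNFα effect with control siRNA, on log2 values, and 17958 genes were tested. BT549 is an established human triple-negative breast cancer line, which lacks oestrogen receptor, progesterone receptor and HER2 amplification. Transfection lasted 72 hours, with either control siRNA (control cells) or pooled siRNAs that target c-Jun (knocked-down cells), and was followed by 6 hours of vehicle or TNFα, so that there were 4 groups of 3 arrays each. All groups share the cell line, the transfection and the growth medium with serum, so no group is untransfected. The siRNA pool lowers the RNA without removing the gene, and 1 cell line stands for the disease.

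TNFα binds its receptor and sets free NF-kB, which enters the nucleus and switches on cytokines, chemokines and its own inhibitors, and the interferon and STAT genes that follow extend the response to antiviral and antigen presentation genes. c-Jun, encoded by JUN, pairs with Fos or ATF proteins to form AP-1, a transcription factor that the same receptor activates through the JNK kinase and that is known for driving matrix proteases and invasion in breast cancer cells. NF-kB and AP-1 often act at the same genes, and the design asks which TNFα responses depend on c-Jun.

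A difference between responses can arise at either end. The start level is the level with vehicle and the TNF level is the level after TNFα, and the c-Jun siRNA effect was tested at each. Genes called for the interaction (limma, Benjamini-Hochberg adjusted p under 0.05) were sorted by whether the c-Jun siRNA effect was called with vehicle alone (start level only), under TNFα alone (TNF level only), at both in the same direction, at both in opposite directions, or at neither. A level is said to have moved where its c-Jun siRNA effect was called. A level without a call is not shown to be unchanged. Where a gene has 1 value in brackets, or is said to give a value, that value is its interaction on the log2 scale. Promoter sequence from RefSeq (GRCh38.p14) is shown for the 2 genes with the largest interaction in each of 3 classes for which the table holds a window. These are IGFL1 (chr19:46229492-46229741, plus strand) and PTX3 (chr3:157436600-157436849, plus) for the TNF level only, NFKBIA (chr14:35404750-35404999, minus) and XAF1 (chr17:6755796-6756045, plus) for the start level only, and TNFRSF9 (chr1:7940840-7941089, minus) and IFIT1 (chr10:89392373-89392622, plus) for both levels in opposite directions. Each run holds the 250 bases before the annotated start, 5′ to 3′ in the direction of the gene. Capitals mark a match to AP-1 (TGANTCA), to the NF-kB consensus, or to the interferon response element ISRE (GAAANNGAAA), read on both strands.
IGFL1: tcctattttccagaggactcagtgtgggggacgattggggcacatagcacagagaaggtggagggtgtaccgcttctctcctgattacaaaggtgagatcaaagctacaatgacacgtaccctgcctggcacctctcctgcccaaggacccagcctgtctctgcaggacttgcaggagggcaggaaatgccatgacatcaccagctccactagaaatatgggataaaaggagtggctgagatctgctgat
PTX3: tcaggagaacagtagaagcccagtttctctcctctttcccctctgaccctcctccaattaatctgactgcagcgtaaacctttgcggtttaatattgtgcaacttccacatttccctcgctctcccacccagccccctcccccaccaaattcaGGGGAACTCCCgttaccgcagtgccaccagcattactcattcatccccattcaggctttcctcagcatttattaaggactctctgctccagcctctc
NFKBIA: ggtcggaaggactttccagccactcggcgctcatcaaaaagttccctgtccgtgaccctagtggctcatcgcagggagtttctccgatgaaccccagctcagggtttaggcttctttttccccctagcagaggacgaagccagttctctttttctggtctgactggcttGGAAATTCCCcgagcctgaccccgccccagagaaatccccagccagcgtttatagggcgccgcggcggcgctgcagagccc
XAF1: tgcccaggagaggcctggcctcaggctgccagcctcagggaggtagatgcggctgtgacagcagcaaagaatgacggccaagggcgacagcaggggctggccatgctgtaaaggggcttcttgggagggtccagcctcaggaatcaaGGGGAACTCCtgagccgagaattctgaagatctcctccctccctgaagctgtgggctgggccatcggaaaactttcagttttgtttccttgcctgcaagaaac
TNFRSF9: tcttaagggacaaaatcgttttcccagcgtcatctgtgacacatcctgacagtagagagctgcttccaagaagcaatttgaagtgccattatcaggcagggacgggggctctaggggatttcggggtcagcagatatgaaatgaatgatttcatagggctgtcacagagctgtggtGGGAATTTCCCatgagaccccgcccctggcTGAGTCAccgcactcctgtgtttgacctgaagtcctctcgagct
IFIT1: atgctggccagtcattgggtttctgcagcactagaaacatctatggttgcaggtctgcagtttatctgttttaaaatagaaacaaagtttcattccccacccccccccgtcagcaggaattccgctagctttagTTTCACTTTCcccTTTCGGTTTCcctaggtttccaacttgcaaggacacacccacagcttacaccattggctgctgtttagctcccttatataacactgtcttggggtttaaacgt
PTX3, NFKBIA and XAF1 carry NF-kB matches, TNFRSF9 carries overlapping NF-kB matches and an AP-1 match, and IFIT1 carries a pair of ISRE matches. These letters are not in the IGFL1 window.

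JUN, the targeted gene, was lower with c-Jun siRNA in every array of the matching treatment. Its log2 level (probe set 7916609) was 10.36, 10.35 and 10.36 in control cells with vehicle and 11.12, 11.05 and 11.05 in control cells with TNFα. In knocked-down cells it was 9.82, 9.85 and 9.81 with vehicle and 10.36, 10.33 and 10.39 with TNFα. TNFα raised JUN under both siRNAs, and the mean of knocked-down cells given TNFα, 10.36, lay next to that of control cells given vehicle, 10.35. JUN was itself called for the interaction, at -0.19 ± 0.045 (SE; adjusted p = 0.0173), in the class with both levels lower. The call ended without control siRNA TNFα replicate 1 (-0.16, adjusted p = 0.054), without the mean-variance trend (0.0806) and with the arrays' position column as a block (0.0554), within a range of 0.0102 to 0.0806 over 27 alternatives.

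The TNFα response differed between the siRNAs for 983 of the 17958 genes (5.47%), with a lower response under c-Jun siRNA for 645 (3.59%) and a higher one for 338 (1.88%). The median absolute interaction of these genes was 0.376 on the log2 scale, with 44 lower and 7 higher by at least 1, against a median of 0.0066 for the signed value over all genes. Of the 875 called genes that responded to TNFα with control siRNA, 774 (88.5%) had an interaction opposite in sign to that response, which counts both smaller and reversed responses. The interaction contains the control response with a minus sign, so the same 6 control siRNA arrays enter both and this share is given as a description. TNFα changed 35.7% of genes with control siRNA and 29.6% with c-Jun siRNA, and c-Jun siRNA changed 28.9% with vehicle and 28.5% under TNFα. Among the 322 genes that TNFα raised at least 2-fold with control siRNA, the median rise was 1.62 with control siRNA and 1.31 with c-Jun siRNA, and 200 (62.1%) were called lower against 16 (4.97%) called higher. Their start level was called higher with c-Jun siRNA in 188 and lower in 30 (14.4% and 14.5% of all genes), while their TNF level was called higher in 91 and lower in 133 (14.1% and 14.4%). The 101 genes that fell at least 2-fold changed from a median of -1.23 to -1.02, with 27 called higher and 8 lower. Both sets were picked by the control siRNA response. Its arrays also enter the interaction and both level effects, so these medians and counts are a description too.

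Sorting by level gave 265 genes in which only the start level moved (1.48% of genes tested), 257 in which only the TNF level moved (1.43%), 352 in which both moved in the same direction (1.96%), 104 in which they moved in opposite directions (0.579%) and 5 with neither call (0.0278%). In the start level class the median absolute c-Jun siRNA effect was 0.318 with vehicle and 0.067 under TNFα. In the TNF level class it was 0.073 with vehicle and 0.381 under TNFα. These medians follow from the sorting and describe it. Both siRNA groups started below the lowest array median of 5.62 for 60 of the 257 TNF level genes (23.3%), against 14 of the 265 start level genes (5.28%). The part of a dim start in that class was not tested.

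**Figure D1:**
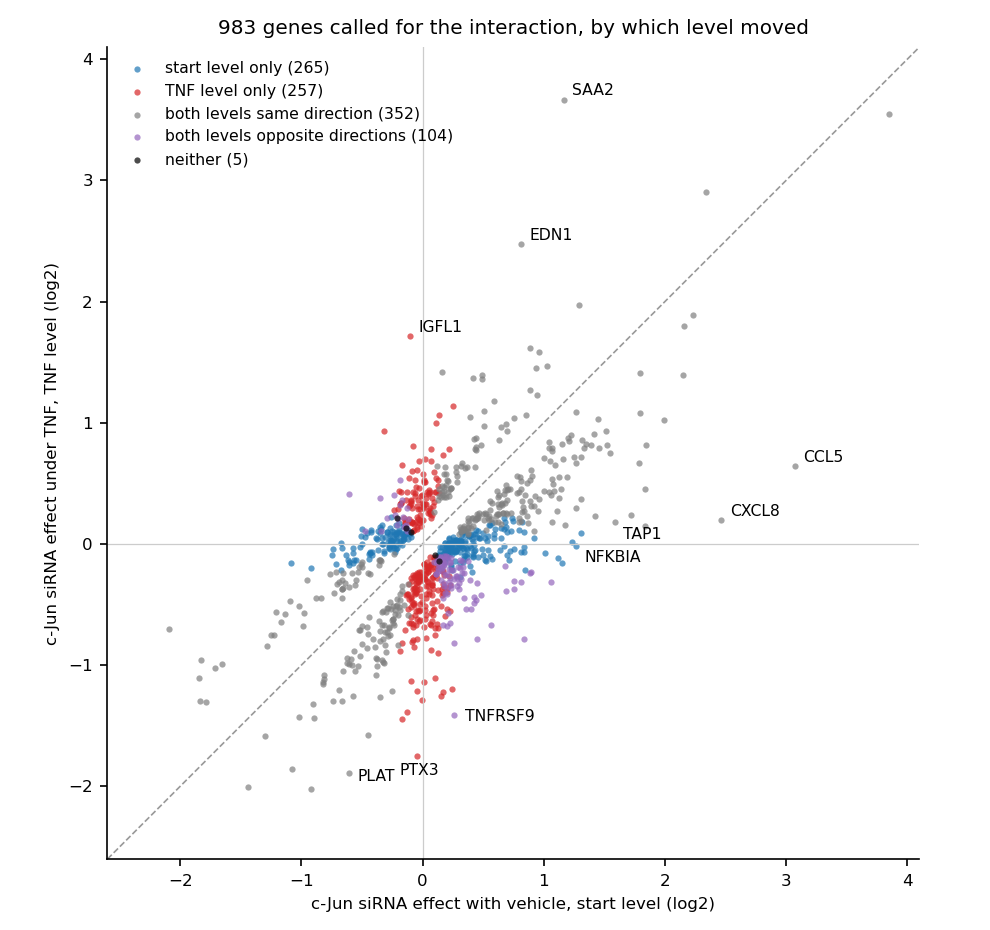
The c-Jun siRNA effect with vehicle (horizontal axis, log2) is plotted against the same effect under TNFα (vertical axis, log2) for the 983 called genes, coloured by class, and the dashed line marks equal effects. Points below the dashed line have a negative interaction, among them CCL5 and CXCL8 far to the right and PTX3 at the bottom, whereas SAA2 and EDN1 lie far above it.

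**Figure D2:**
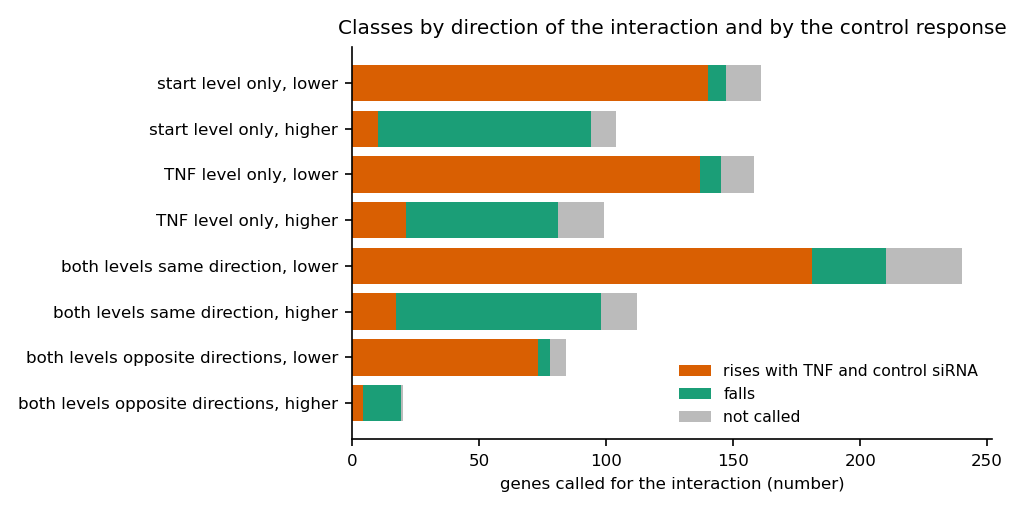
Bars give the number of called genes in each class and direction of the interaction, divided by their TNFα response with control siRNA (rise, fall or not called). Genes called lower mostly rise with TNFα in control cells and genes called higher mostly fall, as in the 161 lower start level genes, of which 140 rise and 7 fall, beside 13.8% and 21.9% of all genes tested. The control siRNA arrays enter both the interaction and this response, so the division is a description.

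The position codes in the array names may be read as plate columns. All 3 arrays with c-Jun siRNA and vehicle lie in column 5, together with 1 array with control siRNA and vehicle. No column holds all 4 groups, so the interaction cannot be formed within a single column. The c-Jun siRNA effect can be formed with vehicle in column 5 and under TNFα in columns 7 and 9, from few arrays. The TNFα effect with c-Jun siRNA has no comparison within a column, since its TNFα arrays lie only in columns 7 and 9. In a direct comparison that effect and the column cannot be told apart. With the column as a fixed block 531 genes were called, of which 496 were among the 983, and 70.8% were lower against 65.6% without it. The array name of c-Jun siRNA TNFα replicate 3 reads as a second run of replicate 1, and without replicate 3 the count was 824. Of 12 leukocyte markers 11 lay below the lowest array median in every group and none was called for the interaction, and their summed level was 57.0 to 57.2, 56.7 to 57.8, 57.1 to 57.3 and 57.6 to 58.2 in control vehicle, control TNFα, c-Jun siRNA vehicle and c-Jun siRNA TNFα arrays. The defining leukocyte gene PTPRC read 3.83 and 3.78 with control siRNA, and of 10 endothelial markers 8 lay below the array medians and none was called. All 10 mesenchymal markers, among them VIM and ZEB1, lay above it in some group and 4 were called. No call was made among 13 luminal and 3 basal markers. These marker counts stand beside 5.47% of all genes called. BT549 is known as a mesenchymal-like line. In such bulk RNA fewer cells with a transcript and less of it per cell cannot be told apart.

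The 161 genes with a lower response and only the start level moved stood higher in knocked-down cells before TNFα. Their levels after TNFα were not called different. Both statements follow from the sorting. NFKBIA, the inhibitor that holds NF-kB in the cytoplasm and is itself an NF-kB target, read 9.51, 9.39 and 9.60 with control siRNA and vehicle, and 10.75, 10.86 and 10.70 in knocked-down cells with vehicle. After TNFα it read 12.58, 12.64 and 12.58 with control siRNA and 12.62, 12.52 and 12.62 with c-Jun siRNA. The vehicle arrays of the siRNAs do not overlap and the TNFα arrays do. Its rise was 3.10 ± 0.048 with control siRNA and 1.82 ± 0.048 with c-Jun siRNA, an interaction of -1.28 ± 0.068 (adjusted p = 1.05e-09), and the c-Jun siRNA effect under TNFα had a 95% interval of -0.11 to 0.088.

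The tight junction claudin CLDN1 had the same form at a higher level. It read 10.57, 10.62 and 10.58 in control vehicle arrays and 11.85, 11.77 and 11.85 in c-Jun siRNA vehicle arrays, then 12.97, 12.92 and 12.99 in control cells and 13.06, 12.88 and 13.00 in knocked-down cells with TNFα. The vehicle arrays do not overlap, and the TNFα arrays interleave. Its interaction was -1.22 ± 0.055 (adjusted p = 1.23e-10), with an interval of -0.062 to 0.10 for the effect under TNFα, and the TNFα rise dropped from 2.37 to 1.15. XAF1, an interferon-stimulated antagonist of the apoptosis inhibitor XIAP, read 4.99, 5.24 and 5.09 in control cells against 6.15, 6.31 and 6.22 in knocked-down cells with vehicle. With TNFα it read 10.64, 10.64 and 10.65 against 10.61, 10.46 and 10.52. The vehicle arrays differ by a wide margin with the control arrays below the array medians, and the TNFα arrays differ narrowly, in the other direction and without a call. The rise of XAF1 was 5.54 with control siRNA and 4.30 with c-Jun siRNA (interaction -1.23 ± 0.089, adjusted p = 5.21e-08).

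APOL6, an interferon-induced apolipoprotein L, led this class by size at -1.30 ± 0.096 (adjusted p = 7.47e-08). Its start was 1.15 higher with c-Jun siRNA, and its TNF level differed by -0.16, which was not called although the unadjusted 95% interval ran from -0.30 to -0.013. RELB, the NF-kB subunit of the slower pathway, had an interaction of -0.88, and CYLD, a deubiquitinase that restrains the pathway, -0.69. Their start levels were 0.82 and 0.67 higher and their effects under TNFα were -0.067 and -0.018. The interferon regulatory factors IRF1 and IRF2 gave -0.55 and -0.50, and the kinase JAK2, which relays cytokine signals to STAT proteins, -0.53. Their uncalled effects under TNFα had unadjusted 95% intervals of 0.022 to 0.223, 0.013 to 0.155 and -0.228 to 0.0086 in that order. The neutrophil chemokine CXCL2 gave -0.68 from a start 0.79 higher, and the membrane-bound chemokine CXCL16 gave -0.64. For these chemokines the interval under TNFα was -0.027 to 0.249 and -0.409 to -0.048. NRG1, a growth factor for HER3 and HER4, started 0.84 higher and gave -0.87, BMP4 started 0.73 higher and gave -0.62, and the early growth-response repressor KLF10 gave -0.47.

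In the same class 104 genes were called higher, and 84 of them fell with TNFα and control siRNA. AMIGO2, a leucine-rich repeat adhesion protein, read 8.17, 7.99 and 8.02 in control cells with vehicle and between 6.91 and 7.02 in the 3 arrays of knocked-down cells with vehicle. With TNFα the values were 7.43, 7.49 and 7.56 in control cells and 7.27, 7.30 and 7.43 in knocked-down cells. The knocked-down vehicle arrays lie lowest of all, and the TNFα effect on AMIGO2 was -0.57 in control cells and 0.36 in knocked-down cells (interaction 0.92 ± 0.091, adjusted p = 2.77e-06). KCTD12, an auxiliary subunit of GABA-B receptors, gave 0.72. KYNU, a hydrolase of the kynurenine pathway, had c-Jun siRNA effects of -0.51 with vehicle and -0.022 under TNFα, for an interaction of 0.49. The sterol synthesis enzymes HMGCS1 and IDI1 gave 0.31 and 0.30. OR51T1 and KIAA1755, at 0.69 and 0.68, were the other genes of this group among the 4 largest. OR51T1 lay below the array medians in every group and was not called with values floored at 5, where its interaction is 0 (adjusted p from 3.68e-05 to 1 over its alternatives), and KIAA1755 was not called with the position column as a block (0.66, adjusted p = 0.0847, the highest over its alternatives from 0.00123).

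Genes in which only the TNF level moved began at levels that were not called different and then parted. PTX3, a secreted pattern-recognition protein of the innate response, read 3.87, 3.95 and 4.17 in control cells with vehicle and 3.97, 4.03 and 3.85 in knocked-down cells with vehicle. After TNFα it read 6.65, 6.68 and 7.06 with control siRNA and 4.92, 5.32 and 4.89 with c-Jun siRNA. The vehicle arrays overlap near the background, and the TNFα arrays lie far apart, the knocked-down ones lower. The rise was 2.80 ± 0.12 against 1.09 ± 0.12, an interaction of -1.70 ± 0.17 (adjusted p = 3.46e-06). The start level effect of PTX3 had a 95% interval of -0.31 to 0.21.

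SERPINA3, an acute-phase protease inhibitor, had the same shape. It read 4.84, 4.68 and 4.69 in control cells and 5.05, 4.77 and 4.84 in knocked-down cells with vehicle, and 8.67, 8.46 and 8.70 in control cells and 7.23, 7.35 and 7.49 in knocked-down cells with TNFα. The TNFα arrays of the siRNAs do not overlap, and the vehicle arrays do, below the array medians. Its interaction was -1.40 ± 0.13 (adjusted p = 1.28e-06). MMP9, a gelatinase that degrades basement membrane collagen, read 5.99, 5.71 and 5.85 in control cells and 5.98, 5.88 and 5.99 in knocked-down cells with vehicle. After TNFα it read 7.35, 7.05 and 7.47 with control siRNA and 6.16, 6.11 and 6.27 with c-Jun siRNA. The 3 knocked-down TNFα arrays all lie above their vehicle arrays by a small margin. A TNFα rise of 1.44 ± 0.097 in control cells stood against 0.23 ± 0.097, not called, in knocked-down cells (interaction -1.21 ± 0.14, adjusted p = 1.44e-05).

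Further proteases and inflammatory genes had lower TNF levels with c-Jun siRNA. The collagenase MMP1 rose by 2.63 in control cells and 1.96 in knocked-down cells (interaction -0.67), and the elastase MMP12 by 1.24 and 0.44 (-0.80). MMP12 lies under a floor of 5 in all groups, where its interaction is 0. PTGER2, a receptor for prostaglandin E2, gave -1.29, TNIP3, which binds A20 and damps NF-kB, -1.03, and SGPP2, a sphingosine phosphate phosphatase, -1.40. The orphan receptor GPR37L1 gave -1.44, and GBP2, an interferon-induced GTPase, -0.78. Mean starts of TNIP3, SGPP2, GPR37L1 and GBP2 lay below the array medians with both siRNAs, as for PTX3 and SERPINA3. The part of a dim start in these genes was not tested. The Wnt antagonist DKK1 rose by 1.29 and 0.65 (-0.64), and the fibrillar collagen COL3A1 by 0.95 and 0.38 (-0.57). The glucose transporter SLC2A1 had no called response in control cells (-0.024) and one of -0.66 in knocked-down cells (-0.64).

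Higher TNF levels with an uncalled start were seen in 99 genes, of which 60 fell and 21 rose with TNFα in control cells. IGFL1, a secreted protein of the insulin growth factor-like family, read 5.17, 5.02 and 4.81 in control cells with vehicle and 4.99, 4.83 and 4.86 in knocked-down cells with vehicle. Under TNFα the arrays read 5.42, 5.15 and 5.44 in control cells and 6.76, 7.20 and 7.19 in knocked-down cells. The last group alone stands above the rest, and all vehicle arrays lie below the array medians. The TNFα effect was 0.34 ± 0.12 with control siRNA and 2.16 ± 0.12 with c-Jun siRNA, an interaction of 1.82 ± 0.17 (adjusted p = 1.23e-06). PI15, a secreted peptidase inhibitor, rose by 1.18 and 2.42 (1.25), and ST8SIA4, which builds polysialic acid chains, by 0.62 and 1.55 (0.92). CDKN1B, a cell-cycle inhibitor, had TNFα effects of -0.84 in control cells and -0.47 in knocked-down cells (0.37). DUSP5P1, a pseudogene that can share signal with its phosphatase parent, gave 0.89. Its call ended in 4 alternatives, among them the position column as a block (0.54, adjusted p = 0.282, the highest over its alternatives from 0.00171) and the dimmer probe set (0.43, adjusted p = 0.211).

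Genes that moved the same way at both levels included the chemokines with the largest interactions. CCL5, which draws T cells and monocytes, read 5.82, 5.97 and 5.89 in control cells with vehicle and 9.01, 8.95 and 8.94 in knocked-down cells with vehicle. With TNFα the values were 11.63, 11.56 and 11.62 with control siRNA and 12.28, 12.23 and 12.22 with c-Jun siRNA. No array of one siRNA overlaps the other at either level, and the gap of 3.07 ± 0.041 at the start shrank to 0.64 ± 0.041 after TNFα. The interaction was -2.43 ± 0.058 (adjusted p = 1.46e-14). On the unlogged signal scale the sign turned: the signal rose by 3052 units in control cells and 4357 units in knocked-down cells.

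CXCL8, the neutrophil chemokine interleukin-8, read 5.69, 5.78 and 6.01 in control cells and 8.31, 8.34 and 8.22 in knocked-down cells with vehicle. In the TNFα arrays it read 11.41, 11.42 and 11.40 in control cells and 11.63, 11.55 and 11.64 in knocked-down cells. The start differs widely and the TNF level slightly, with no overlap at either. Its interaction was -2.27 ± 0.086 (adjusted p = 8.39e-12), and its signal gain, 2667 against 2806 units, also turned the sign. The monocyte chemokine CCL2 gave -1.69, from a start 1.84 and a TNF level 0.15 higher.

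TAP1, which pumps peptides into the endoplasmic reticulum for MHC class I, read 8.37, 8.33 and 8.35 in control vehicle arrays and 9.87, 9.97 and 9.97 in knocked-down vehicle arrays. TNFα arrays read 11.53, 11.52 and 11.49 in control cells and 11.71, 11.68 and 11.70 in knocked-down cells. All arrays with c-Jun siRNA lie above those with control siRNA at the same treatment, by 1.59 at the start and 0.18 after TNFα. Its interaction was -1.40 ± 0.047 (adjusted p = 1.68e-12), and here the signal gain fell too, from 2596 to 2335 units. The immunoproteasome subunit PSMB9 gave -1.03 and the class I chain HLA-B -0.82, although HLA-B shares long stretches with other class I chains, and the signal gain of PSMB9 turned the sign. NFKB2, the precursor of the slower NF-kB pathway, gave -1.02 from a start 1.18 higher. The matricellular YAP target CCN1 rose by 1.34 in control cells and 0.37 in knocked-down cells (-0.97), with starts 1.99 apart. Thrombospondin THBS1 (-0.53), the integrin chain ITGAV (-0.41), the cell-cycle kinase CDK6 (-0.57) and the BH3-only death gene PMAIP1 (-0.58) had the same order of levels, with the sign of PMAIP1 turned on the signal scale.

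Other genes of this class were lower with c-Jun siRNA at both levels and lower still under TNFα. PLAT, tissue plasminogen activator, read 5.90, 5.96 and 5.92 in control cells with vehicle and 5.18, 5.44 and 5.34 in knocked-down cells with vehicle. With TNFα it read 8.09, 7.69 and 7.99 in control cells and 5.97, 6.17 and 5.97 in knocked-down cells. The knocked-down TNFα arrays come only just above the control vehicle arrays. The rise of PLAT was 2.00 ± 0.097 in control cells and 0.71 ± 0.097 in knocked-down cells (interaction -1.28 ± 0.14, adjusted p = 7.32e-06). TGFB3, a ligand of the TGF-beta family, rose by 0.91 in control cells and had no called response after knockdown (-0.91). ZEB2, a repressor of epithelial genes, read 9.07, 9.15 and 9.14 in control cells with vehicle and 10.21, 10.17 and 10.19 with TNFα. In knocked-down cells ZEB2 read 8.75, 8.71 and 8.68 and 9.35, 9.46 and 9.40, so that each knocked-down array lies below the control arrays of its treatment. The interaction of ZEB2 was -0.38 ± 0.055 (adjusted p = 0.000248). With the mean of its probe sets the value was -0.35 (adjusted p = 0.12) and with the dimmer probe set -0.32 (0.473, the highest of its alternatives, from 7.92e-05). SNAI2, a repressor of the same kind, had TNFα effects of -0.33 in control cells and -0.90 in knocked-down cells (-0.57), with the sign turned on the signal scale. PGF, placental growth factor, was instead higher at both levels, by 1.72 with vehicle and 0.24 under TNFα, and its TNFα effects were -1.23 and -2.71 (-1.49).

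Higher interactions with both levels moved were led by SAA2, a serum amyloid A of the acute phase. SAA2 read 3.97, 4.02 and 3.82 in control cells with vehicle and 4.24, 4.23 and 3.90 in control cells with TNFα. In knocked-down cells it read 5.11, 4.95 and 5.25 with vehicle and 7.85, 7.48 and 8.05 with TNFα. The control arrays stay below the array medians with or without TNFα, and each knocked-down array lies above them. Its interaction was 2.50 ± 0.18 (adjusted p = 5.06e-08), whereas a second, dimmer SAA2 probe set gave 0.46 (adjusted p = 0.24, the highest of its alternatives, from 5.68e-09). SAA1, a near-identical copy with which signal may be shared, gave 0.89.

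EDN1, which encodes the vasoconstrictor endothelin-1, read 6.06, 6.14 and 5.91 in control cells with vehicle and 6.21, 6.31 and 6.11 with TNFα. In knocked-down cells it read 6.78, 6.86 and 6.91 with vehicle and 8.75, 8.61 and 8.68 with TNFα. Control arrays before and after TNFα lie close together, and knocked-down arrays rise by 1.83 ± 0.074. The interaction of EDN1 was 1.66 ± 0.10 (adjusted p = 1.04e-08). TNFSF18, the ligand of the receptor GITR, rose by 1.76 and 3.01 (1.25). ADM, which encodes the vasodilator adrenomedullin, gave 0.73, the immediate early factor EGR1 0.65, the clock factor NPAS2 0.66, the inhibitor of DNA binding ID3 0.59 and the retinal reductase DHRS3 0.56. On the unlogged scale 44 of the 352 genes with both levels moved the same way (12.5%) had the opposite sign, against 46 of all 983 (4.68%), the other 2 being LIF and VCAM1 in the start level class.

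**Figure D3:**
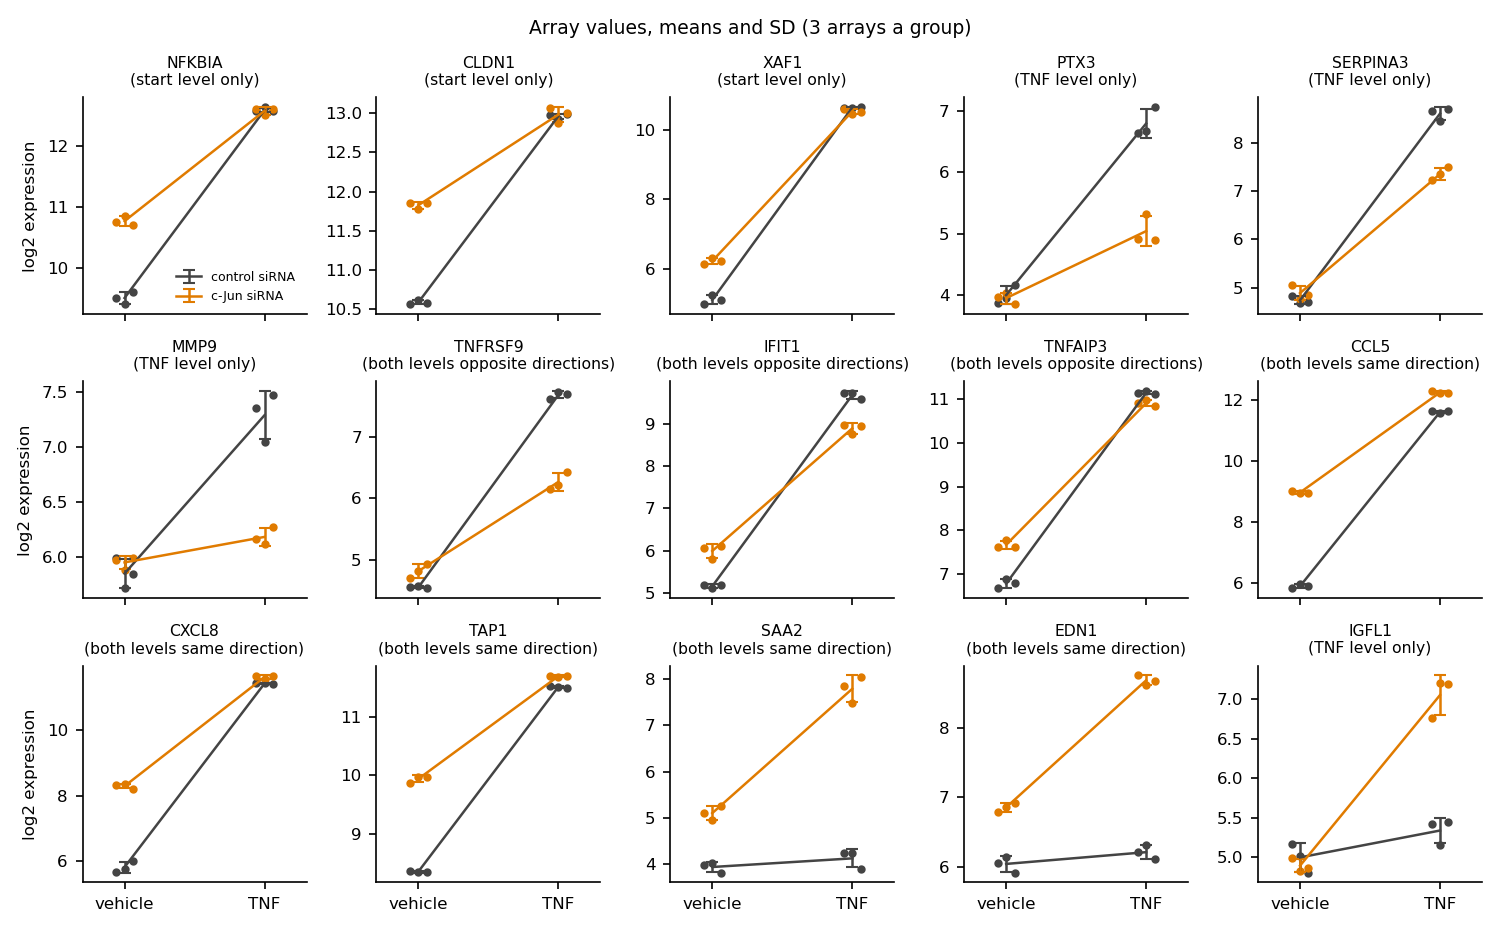
Each panel gives log2 expression of 1 gene in all 12 arrays (points), with group means and SDs over 3 arrays (lines and bars), for control siRNA (dark) and c-Jun siRNA (orange) with vehicle and with TNFα. NFKBIA, CLDN1 and XAF1 start apart and have no called difference after TNFα. PTX3, SERPINA3, MMP9 and IGFL1 have no called difference at the start and lie apart after TNFα. TNFRSF9, IFIT1 and TNFAIP3 cross, and CCL5, CXCL8, TAP1, SAA2 and EDN1 differ at both levels.

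Genes in which both levels moved in opposite directions crossed over, with a higher start and a lower TNF level in 84 of 104. TNFRSF9, the co-stimulatory receptor 4-1BB, read 4.56, 4.58 and 4.54 in control cells with vehicle and 4.70, 4.83 and 4.94 in knocked-down cells with vehicle. After TNFα it read 7.61, 7.73 and 7.69 in control cells and 6.15, 6.22 and 6.43 in knocked-down cells. The start differs by 0.26 without overlap of arrays, below the array medians, and the TNF level by -1.41. Its interaction was -1.67 ± 0.12 (adjusted p = 4.14e-08).

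IFIT1, an interferon-induced protein that binds foreign RNA caps, read 5.18, 5.10 and 5.18 in control vehicle arrays and 6.07, 5.80 and 6.10 in knocked-down vehicle arrays. Under TNFα the arrays read 9.72, 9.73 and 9.58 in control cells and 8.97, 8.75 and 8.95 in knocked-down cells. Start and TNF level moved by like amounts in opposite directions, 0.83 ± 0.079 and -0.79 ± 0.079. The interaction of IFIT1 was -1.62 ± 0.11 (adjusted p = 3.78e-08). TNFAIP3, which encodes the NF-kB inhibitor A20, read 6.67, 6.88 and 6.79 in control cells and 7.61, 7.77 and 7.62 in knocked-down cells with vehicle, and 11.15, 11.18 and 11.11 in control cells and 10.92, 10.97 and 10.84 in knocked-down cells with TNFα. The knocked-down arrays are the higher ones before TNFα and the lower ones after it, with no overlap. TNFAIP3 rose by 4.37 against 3.24 (interaction -1.13 ± 0.078, adjusted p = 3.9e-08).

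PARP14, an interferon-linked ADP-ribosyltransferase, crossed as well (-1.37), and so did the macrophage growth factor CSF1 (-1.13), the SNARE protein STX11 (-1.23) and the small MAF factor MAFF (-0.77). The cytokine IL6 had c-Jun siRNA effects of 0.30 with vehicle and -0.37 under TNFα (-0.68), although a dimmer IL6 probe set gave -0.20 (adjusted p = 0.541, the highest of its alternatives, from 8.09e-07). The adhesion molecule ICAM1 had effects of 0.33 and -0.19 (-0.53). In the other direction, 20 genes had a lower start and a higher TNF level. TXNIP, an inhibitor of thioredoxin, had TNFα effects of -1.17 and -0.44 (0.73). IKBKE, a kinase that phosphorylates interferon regulatory factors, rose by 0.52 and 1.24 (0.72), the ephrin EFNA1 by 0.82 and 1.46 (0.64), and heme oxygenase HMOX1 by 0.43 and 1.01 (0.58). The pseudogene ADCY10P1 gave 1.02 and was not called with values floored at 4 or 5 (adjusted p up to 0.0671, from 0.000298). The 5 genes with neither call were STARD10, RNF41, HMGN3, SPINT3 and ZNF480, with adjusted p between 0.0381 and 0.0488. STARD10, RNF41, HMGN3 and SPINT3 lost the call in 12 to 18 alternatives each, many of them with a single array left out.

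The lists of inflammatory genes differed in how many members were called and at which level they moved. These lists were chosen with earlier results of these data known. Of 39 measured interferon-stimulated antiviral genes 28 (71.8%) were called, all lower, against 5.47% of all genes. Of the 322 genes that TNFα raised at least 2-fold with control siRNA, 62.1% were called lower. Whether this or another list differs from such TNFα-raised genes was not tested. The median TNFα rise of the antiviral genes was 2.60 in control cells and 1.71 in knocked-down cells. The median interaction was -0.66, beside 0.0066 for all genes. By class 9 were start level only (among them IFIT3, RIGI and PARP9), 9 TNF level only (OAS1, OAS2, MX1, RSAD2, ISG15), 2 moved the same way at both (SAMD9L, UBE2L6) and 8 crossed (IFIT1, OAS3, IFIH1, USP18). The start level was called higher with c-Jun siRNA in 22 of the 39 and lower in none. The TNF level was called higher in 5 and lower in 19. Over all genes the start level was called higher in 14.4% and lower in 14.5%, and the TNF level in 14.1% and 14.4%. With the position column as a block 23 were called with a median of -0.65. With the dimmest 50% of genes left out 17 were called. That setting takes dim genes out of the test, so members can drop out untested, and how many remained is not given here.

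MHC class I presentation genes had another distribution. Of 16 measured 12 were called, all lower, with a median interaction of -0.42 and median TNFα effects of 1.31 in control cells and 0.89 in knocked-down cells. Of the 12, 5 were start level only (TAP2, B2M, HLA-F, TAPBP, PSME2), 6 moved the same way at both (TAP1, PSMB9, PSMB8, ERAP1, HLA-B, HLA-C) and 1, the transactivator NLRC5, was TNF level only. The start level was called higher in 14 and the TNF level higher in 9 and lower in 1. Among all genes the start level was called higher in 14.4%, and the TNF level higher in 14.1% and lower in 14.4%. For the interaction 5.47% of all genes were called, 3.59% of them on the lower side. The block on position columns gave 12 calls and a median of -0.51.

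Of 10 NF-kB subunits and inhibitors 7 were called, all lower (median -0.47): NFKBIA, RELB and NFKBIE at the start level, NFKBIB at the TNF level, NFKB2 and REL at both in the same direction and NFKB1 crossing. Median TNFα effects were 1.82 in control cells and 1.26 in knocked-down cells, and 5 calls were made with the position block. Over all genes 5.47% were called, 3.59% lower and 1.88% higher. Of 12 genes of A20, TRAF and cIAP feedback 7 were called, all lower (median -0.55), 7 also with the position block: CYLD at the start level, TNIP3, TNFAIP8 and MAP3K8 at the TNF level, and TNFAIP3, TRAF3 and RIPK2 crossing. Chemokines were mixed. Of 11 CXC chemokines 5 were called, all lower, with CXCL2 and CXCL16 at the start level, CXCL10 and CXCL11 at the TNF level and CXCL8 at both, while the list median was -0.0090. Of 10 CC chemokines 3 were called, CCL2 and CCL5 lower and CCL4 higher, the last below the array medians in every group and not called with values floored at 4 or 5 or with the position block. IL6, LIF and CSF1 were the 3 called of 15 cytokines of the IL-6 and IL-1 families and colony-stimulating factors, all lower. LIF was not called with the mean of its probe sets (-0.32, adjusted p = 0.106) or with the position block (-0.51, adjusted p = 0.0587), and its adjusted p ranged from 0.000382 to 0.889 over the alternatives.

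**Figure D4:**
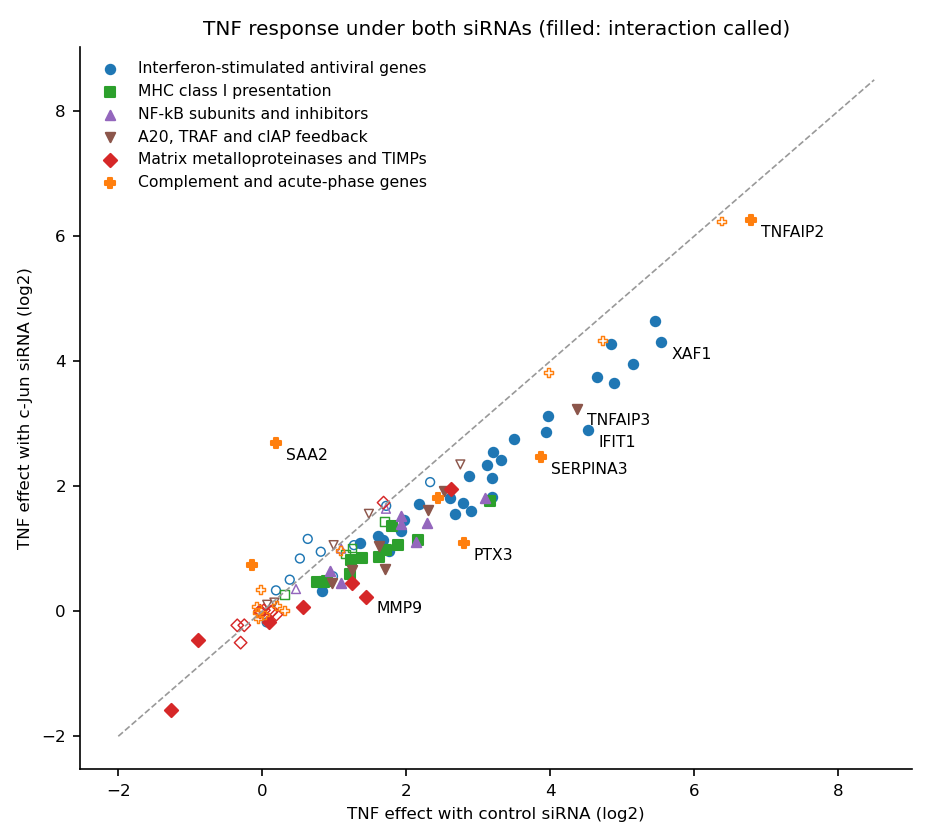
The TNFα effect with c-Jun siRNA (vertical axis, log2) is plotted against that with control siRNA (horizontal axis, log2) for the measured members of 6 lists, with filled symbols for genes called for the interaction and a dashed line of equal responses. Interferon-stimulated, MHC class I and NF-kB genes mostly lie below the line, as do MMP9 and PTX3, and SAA2 lies above it.

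For the lists below, the share over all genes was 5.47% called, with 3.59% lower and 1.88% higher. Of 17 AP-1 and ATF genes 4 were called, all lower (median of the list -0.031). JUN moved at both levels, JUNB (-0.32) and FOSL1 (-0.24) at the start level, and MAFF crossed. The list had 2 calls with the position block and 2 without control siRNA TNFα replicate 1, where FOSL1 gave -0.21 (adjusted p = 0.0522, within a range of 0.00703 to 0.163) and JUN lost its call too. Of 17 matrix metalloproteinases and their inhibitors 7 were called, 6 lower and 1 higher, with a list median of -0.14. MMP1, MMP9, MMP12 and the collagenase MMP13 moved at the TNF level only, and MMP11, MMP16 and TIMP3 at both, with no call in the start level or crossing classes. The start level was called lower with c-Jun siRNA in 7 of the 17 and higher in 1. The TNF level was called lower in 11 and higher in 1. Beside this, the start level of all genes was called lower in 14.5% and higher in 14.4%, and the TNF level in 14.4% and 14.1%. The calls fell to 4 with the position block and without c-Jun siRNA vehicle replicate 2. In the plasminogen activator list PLAT and the inhibitor SERPINE2 (-0.21) were the 2 called of 6, both lower at both levels, and without control siRNA TNFα replicate 2 there were 4.

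Outside inflammation, 10 of 25 MAPK feedback and early genes were called, 7 lower and 3 higher (list median -0.10), and 6 with the position block, with the early gene IER3 at -0.59 and EGR1 higher. Of 23 TGF-beta, BMP and ID genes 7 were called, 5 lower (TGFB3, BMP4, BMP2, ID2, TGFBR1) and 2 higher (ID1, ID3), with a list median of -0.12. Hypoxia and glycolysis genes were split with 4 lower and 4 higher of 20 (list median 0.013), SLC2A1 and hexokinase HK2 (-0.44) lower and ADM, BNIP3, PDK1 and LDHA higher. All 4 called of 18 cholesterol and fatty acid synthesis genes were higher (HMGCS1, IDI1, MVD, SREBF1), with a list median of 0.094, and 2 were called with the position block. Of 12 metallothioneins and zinc carriers 5 were called, with MT1E (0.56), MT1F (0.48) and MT2A higher and the zinc importers SLC39A8 (-0.42) and SLC39A14 lower. MT1E and MT1F share most of their sequence, and both turned the sign on the signal scale. Of 21 YAP targets 4 were called, all lower (CCN1, AMOTL2, CRIM1, FJX1; list median -0.059), and of 14 mesenchymal and EMT genes 5, 4 lower and ZEB1 higher, which fell to 3 with the position block and without control siRNA TNFα replicate 3. Of 30 collagens, integrins and matrix glycoproteins 7 were called, 6 lower, and 7 with the position block. Beside these counts, 5.47% of all genes were called, 3.59% lower and 1.88% higher.

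The share of all genes called was 5.47%, with 3.59% lower and 1.88% higher. Of 17 complement and acute-phase genes 6 were called, with the complement protease C1S, PTX3, SERPINA3 and TNFAIP2 lower and SAA1 and SAA2 higher. Of 13 STAT, JAK and SOCS genes 4 were called, all lower, among them the feedback inhibitor SOCS3 (-0.47), whose TNFα effect was -0.32 in control cells and -0.79 in knocked-down cells. Of 12 adhesion genes VCAM1 (-0.50), ICAM1 and ALCAM (-0.28) were called, all lower. VCAM1 starts below the array medians, and with values floored at 5 its interaction turned to 0.027 (adjusted p = 0.84, the highest of its alternatives, from 0.000113). Of 15 prostaglandin genes the receptors PTGER2 and PTGFR (-0.49) and the synthase PTGIS (-0.39) were called, all lower. Of 8 interferon regulatory factors IRF1 and IRF2 were called, both with a lower response and in the start level only class, and of 6 guanylate-binding proteins GBP2.

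Survival and growth genes were mixed, while 5.47% of all genes were called, 3.59% lower and 1.88% higher. Of 28 BCL2 family genes and death receptors 6 were called, 4 lower (TNFRSF9, PMAIP1, TNFRSF10B, TNFRSF11B) and 2 higher (FAS, TNFRSF10A), and 3 with the position block. Of 18 p53 and G1 genes 5 were called, with CDK6, MDM2, ZMAT3 and CCND1 lower and CDKN1B higher, and 2 with the position block. CCND1, cyclin D1, gave -0.36, and its dimmest probe set 0.036 (adjusted p = 0.92, the highest of its alternatives, from 0.000311). Of 27 ribosome biogenesis factors 6 were called, all lower, and 2 with the position block, 2 without control siRNA TNFα replicate 1 or replicate 3, and 3 without c-Jun siRNA vehicle replicate 3 or c-Jun siRNA TNFα replicate 3.

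None of 25 DNA replication genes and none of 25 oxidative phosphorylation subunits was called by limma, and 1 gene in each had an unadjusted p under 0.05. The share over all genes was 5.47%, so no call among 25 genes lies close to it. The lists below with a single call stood at 4% to 9.09%, also near that share. The kinase TTK was the 1 call of 25 mitosis genes (0.20, adjusted p = 0.0349). It lost the call in 17 of 27 alternatives, among them the position block (adjusted p = 0.167, the highest of a range from 0.00984), the replicate block (0.0518) and the loss of any array other than c-Jun siRNA vehicle replicate 3. A single gene was called among 22 amino acid and unfolded protein stress genes (SLC7A11, lower, and not with values floored at 4 or 5), 23 tight junction and epithelial genes (CLDN1) and 12 EGFR family genes (NRG1). Of 11 reference genes B2M alone was called, which is also an MHC class I gene. The Wnt receptor FZD8 (-0.57) and DKK1 were the 2 called of 25 Notch and Wnt genes, and NPAS2 and CRY1 (-0.34) the 2 of 16 clock genes. HMOX1 and SLC7A11 were the 2 called of 15 superoxide dismutase and NRF2 target genes. Of 19 vitamin D, retinoid and kynurenine genes 4 were called, with the retinoic acid receptor RARA lower and DHRS3, KYNU and CYP27B1 higher, and CYP27B1 lost its call in 13 of 26 alternatives.

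**Figure D5:**
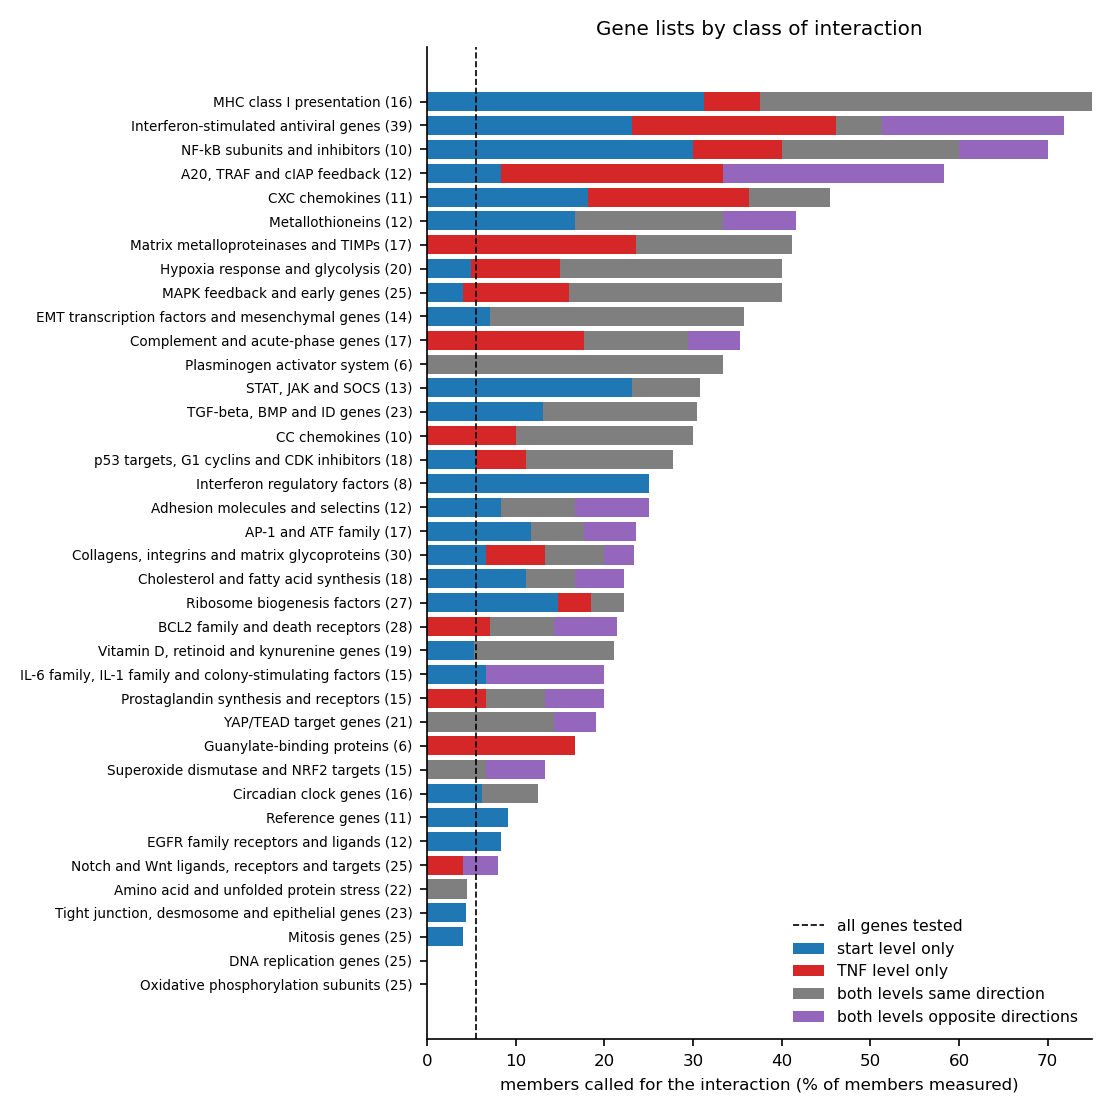
Bars give the share of measured members of each list (number in brackets) called for the interaction, in percent, divided by class, and the dashed line marks the 5.47% of all genes tested. MHC class I, interferon-stimulated and NF-kB genes reach 70% or more, and the DNA replication and oxidative phosphorylation lists have no call. Among genes that TNFα raised at least 2-fold with control siRNA, 62.1% were called lower.

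Promoter windows of 300 bases, 250 before and 50 from the start, were available for 13864 of the 17958 genes. The AP-1 letters TGANTCA were in 5.58% of these windows and in 5.64% of the 762 windows of called genes. Among genes called lower they were in 6.09% of 115 windows for the start level only, 8.66% of 127 for the TNF level only, 4.76% of 189 for both levels in the same direction and 5.97% of 67 for crossing genes. Among genes called higher the shares were 6.02% of 83, 5.19% of 77, 2.41% of 83 and 5.88% of 17 windows in that order. The cyclic AMP element TGACGTCA was in 2.67% of all windows and in 2.36% of those of called genes. The NF-kB letters GGGNNNNNCC, searched with a free middle, were in 68.0% of all windows and in 75.2% of those of called genes. The stricter NF-kB consensus was in 12.5% of all windows and 18.1% of those of called genes, with 25.2% for the start level, 17.3% for the TNF level, 18.5% for both levels in the same direction and 26.9% for crossing genes, all in the lower direction. Among genes called higher the shares were 10.8%, 14.3%, 13.3% and 17.6% in that order. ISRE letters were in 3.04% of all windows and 6.30% of those of called genes, with 13.9%, 9.45%, 3.17% and 16.4% in the lower direction and 0 of 83, 2 of 77, 1 of 83 and 0 of 17 windows in the higher direction. The NF-kB consensus and ISRE were chosen after the class members were known, the NF-kB motifs overlap each other, and a match in a window is a description of its letters.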

How the data were processed

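Expression was measured on 12 arrays of BT549 cells, 3 in each of 4 groups. The deposited values are probe set levels that the authors had summarised and normalised, and per the submitters' processing notes Affymetrix Expression Console 1.1 and PLIER were used, with their roles not stated. The deposited values were taken as log2 from their range of 2.27 to 14.0, since no label names the base. Array medians lay between 5.62 and 5.68, and nothing further was scaled.

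Of 33297 probe sets, 19181 carry 1 gene symbol, 2055 several and 12061 none. Each gene was represented by its brightest probe set (mean of all 12 arrays), without a filter on dim genes, which left 17958 genes. A model with 1 mean per group was fitted with limma 3.58.1 (R 4.3.3, trended variance), and p-values were adjusted by Benjamini-Hochberg over all genes, with calls at an adjusted p under 0.05. Errors given as ± are SEs of a difference. Whether replicates came from separate cultures is not given, so the spread behind each p-value is that between these samples and may be technical. Precision is limited by how many arrays there are.

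The members and lists were chosen with earlier results of these data known. Named are JUN and ZEB2, up to 4 genes with the largest interaction in each class and direction (2 where neither level was called) and up to 3 called genes of each list, 115 in all, and some of these are not reported here. Further members are named where a list's calls are given. Of 738 list entries 678 were measured.

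On simulated data with 200 changed genes the interaction test recovered 17.9% of changes of 0.25, 85.1% of 0.5 and 100% of 1 log2 unit, and 4.93% of its calls were false. The noise was drawn in a single run as normal and independent between arrays, with the fitted spreads. Position columns and a possible second run of a replicate are therefore not covered by these shares. Deviations of the 18 pairs of same-numbered samples correlated at -0.059 to 0.088, with a median of 0.0039 beside 0.00072 for other pairs. No pairing by number was seen, but such correlations cannot exclude that same-numbered samples came from a shared experiment. Alternatives covered position columns, replicate numbers, array centring, quantile normalisation, floors, dim filters, other probe sets, variance models, thresholds and each array left out. Promoter windows are from RefSeq (GRCh38.p14). Python 3.11.15, pandas 2.3.3 and matplotlib 3.10.9 were used.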

Additional observations from a re-analysis of the deposited data

Results flagged for a closer look

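The TNFα response differed between the siRNAs for 983 genes by the interaction term. Among them a rise in control cells turned to a fall in knocked-down cells in 23 genes, and a fall to a rise in 16. In 5 of the genes named in the text the response to TNFα was called in opposite directions in control and knocked-down cells. The interaction was 0.92 for AMIGO2, 0.65 for EGR1, 0.73 for ADM and 0.30 for IDI1, which fell in control cells and rose in knocked-down cells. It was -0.59 for AMOTL2, a YAP target, which rose in control cells and fell in knocked-down cells.

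Probe sets outside the gene table also gave calls. Of 14116 probe sets that carry several symbols or none, 30 were called (0.213%), 14 with several symbols and 16 with none, 26 lower and 4 higher, while 937 had an unadjusted p under 0.05. The largest absolute interaction among them was 1.61 on the log2 scale.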

How the results depend on the processing

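With the position column as a fixed block 531 genes were called, 376 lower and 155 higher, with 134 at the start level only, 168 at both levels in the same direction and 53 in opposite directions. An adjusted p under 0.01 left 553 calls (411 lower, 142 higher; 167 start level, 151 TNF level, 176 same and 55 opposite direction). A size of at least 0.5 left 315 (234 lower, 81 higher; 62, 94, 104 and 55 in that order). Without the mean-variance trend 233 genes moved the same way at both levels. Requiring levels to move by at least 0.3 gave 204 in the same and 22 in opposite directions, and requiring groups not to overlap gave 162 in opposite directions. Of the 983 genes, 546 kept their class with the rule of 0.3 and 837 with the rule of no overlap. With the position block 426 were called with the same class. The replicate block gave 937 calls, of which 892 were among the 983, although no pairing by number was seen.

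Leaving out 1 array gave 774 to 1009 calls, 527 to 640 lower and 241 to 369 higher, with 205 to 286 genes at the start level only, 202 to 279 at the TNF level only, 264 to 335 in the same and 87 to 104 in opposite directions. Centring on array medians raised the lower share from 65.6% to 75.2%. The sign turned for VCAM1 with values floored at 5 (0.027, adjusted p = 0.84) and for CCND1 with its dimmest probe set (0.036, adjusted p = 0.92). The causes were not tested.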
